A study of Canis lupus familiaris with 55 samples.

Results

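Gonads of XX embryos at risk of the canine XX disorder of sex development (XX DSD) were compared with gonads of XY littermate controls at gestational day 35 (d35), the day of gestation counted from the luteinizing hormone surge. The comparison used 13 of the 55 RNA-seq libraries of the study, 9 XX and 4 XY, which were chosen by the sex, pedigree and age on their labels. XX DSD is a condition in which dogs with an XX karyotype and no *SRY* gene form testes or ovotestes. The embryos came from a model pedigree bred from American cocker spaniels and beagles. All 13 carried the guanine insertion on CFA9 (in intron 1 of *BTBD17*), so the groups differed in sex and not in the presence of the insertion. Of the XX embryos, which were *SRY*-negative, 4 were homozygous (G+/G+) and 5 heterozygous (G+/-). Of the XY embryos, which were *SRY*-positive, 3 were G+/G+ and 1 (C3617) was G+/-. The XX embryos came from litters L194 (3), L197 (1), L208 (4) and L217 (1), and the XY embryos from L208 (C3574) and L217 (C3617, C3618 and C3619).

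Each library held both gonads of 1 embryo. The gonads were used up for RNA, so that it is not known which XX embryos would have formed testicular tissue. Libraries were not strand-specific and were pooled for sequencing by group, at risk or control. The sources used here do not give whether XY littermates shared a pool with the XX embryos, so sex and sequencing pool cannot be told apart. Later libraries without any sample in common served for comparison: 8 XX and 5 XY embryos of the same pedigree at d37-39, and 6 XX and 6 XY beagle controls without the insertion (-/-) at d37-39. In that later pedigree group all XY embryos were G+/G+, as were the XX embryos apart from C3632 and C3633 (G+/-). None of its litters was among those at d35. Single XX and XY libraries made from pooled d34 control gonads are given beside some values and were not tested.

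In mammals the gonad begins as a bipotential ridge. In the XY gonad *SRY* raises *SOX9* in supporting cells, which become Sertoli cells, enclose germ cells in cords and secrete AMH and hedgehog ligand, and Leydig cells of the interstitium then produce androgen. In the XX gonad RSPO1 and WNT4 signal through beta-catenin, and FOXL2 marks supporting cells that become pre-granulosa cells. Each programme represses the other.

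Relative depth, read from the steps between the lowest FPKM values, ranged from 0.444 to 1.59 among the 13 libraries and did not differ between sexes beyond their spread (log2 difference 0.016, exact permutation p = 0.975). XX and XY libraries separated on the first principal component (27.6% of the variance), and the XX library of C3575 stood apart on the second (16.6%). In C3575, the shallowest library, ribosomal protein transcripts were 1.03 higher on the log2 scale than the median library, and long transcripts were 0.27 lower relative to short ones. Counts of the main lists are therefore also given without it. *XIST*, the RNA of the inactive X chromosome (Xist_exon4 in the annotation), lay at 5.52 to 66.2 FPKM in the XX libraries and at no more than 0.00525 in any XY library.

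Several testis genes were far higher in XY than in XX gonads at d35, *AMH* by 99.4-fold between the group means, and ovary genes were higher in XX gonads. *SOX9*, *AMH*, *DMRT1*, *INHBB* and *HSD17B3* were higher in every XY gonad than in any XX gonad, and *FOXL2*, *RSPO1*, *WNT4*, *NKD1* and *CBLN2* were higher in every XX gonad. Over the 17200 loci tested with limma, 397 were called higher in XX gonads (2.31%) and 513 higher in XY gonads (2.98%), where a call needed a Benjamini-Hochberg adjusted p under 0.05, means that differed 2-fold or more, and 4 FPKM or more as the mean of either sex. By the adjusted p alone, 1427 were higher in XX (8.30%) and 2257 higher in XY (13.1%). XX and XY libraries did not overlap at 804 loci with XX higher (4.67%) and 1400 with XY higher (8.14%). Each embryo gave 1 library, and the p-values measure the spread between these embryos alone. With litter as a fixed factor the calls numbered 633, and loci with an adjusted p under 0.05 numbered 1536, in a design where only L208 and L217 held both sexes.

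**Figure D1:**
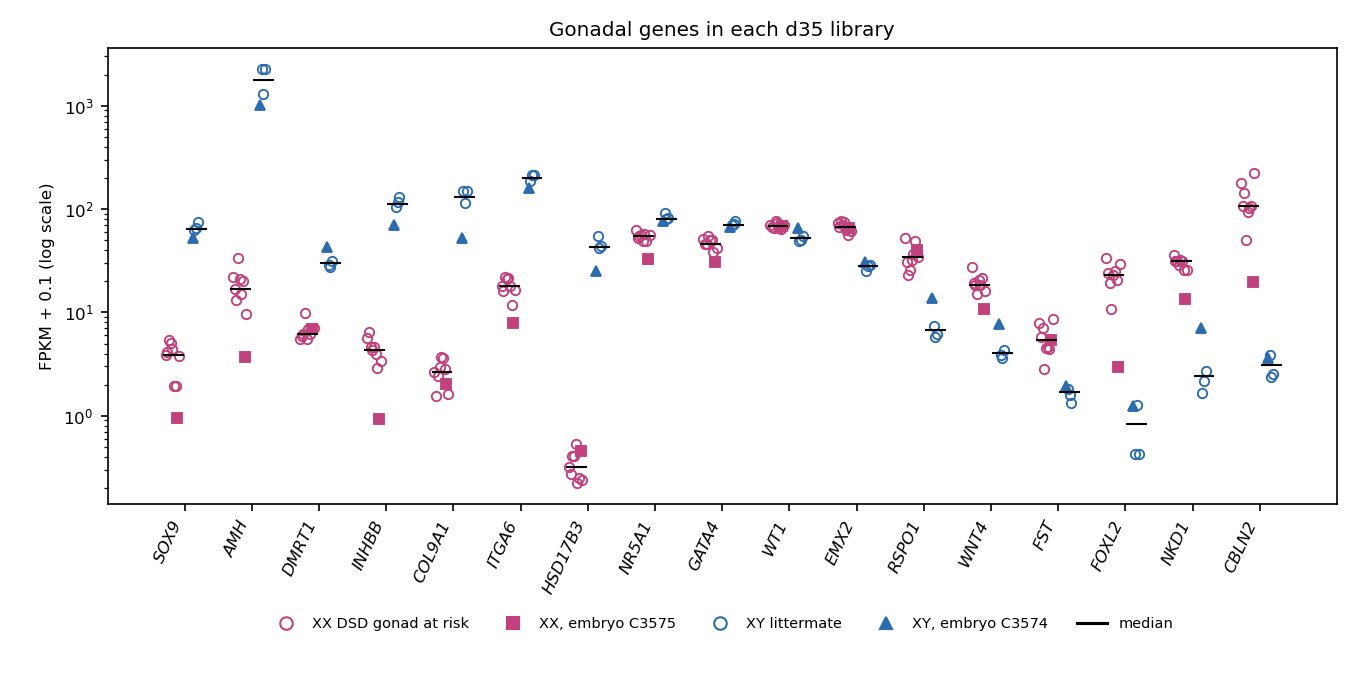
Level of 17 gonadal genes in each d35 library, as FPKM plus 0.1 on a log scale; pink symbols are the 9 XX gonads, blue symbols the 4 XY gonads and black bars the group medians. For *SOX9* the XX gonads lie at 0.853 to 5.25 FPKM and the XY gonads at 52.5 to 74.1; C3575 (square) is the lowest XX gonad for *SOX9*, *AMH*, *INHBB* and *FOXL2*.

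*SOX9*, the transcription factor that directs Sertoli cell fate (CFA9 from 8275049 to 8280390 in CanFam3), was at 0.853 to 5.25 FPKM in XX gonads with a median of 3.79. In the XY gonads C3574, C3617, C3618 and C3619 it was at 52.5, 62.3, 64.7 and 74.1 FPKM. The lowest XY value was about 10 times the highest XX value, and the difference was -3.96 ± 0.29 (log2 fold change of FPKM + 1, XX minus XY, ± SE; limma adjusted p = 9.07e-07). *AMH*, encoding the hormone with which Sertoli cells remove the Müllerian ducts, was at 3.57 to 33.6 FPKM in XX gonads (median 16.8) and at 1020.5, 2264, 1288 and 2241 FPKM in XY gonads, in the table of annotated genes (-6.65 ± 0.42, limma adjusted p = 1.69e-07). Its XX values spread nearly 10-fold, with C3575 lowest and C3525 highest, and none came near an XY value. *DMRT1*, a transcription factor that maintains testis fate, was also above 5 FPKM in every XX gonad (5.38 to 9.73) against 42.4, 28.4, 27.7 and 31.5 FPKM in XY gonads (-2.14 ± 0.14, limma adjusted p = 3.66e-07). For *DMRT1* C3574 was the highest XY gonad, whereas for *SOX9* and *AMH* it was the lowest. Exact permutation tests over the 715 arrangements of the 13 libraries gave p = 0.0014 for each of these genes, the smallest p that 715 arrangements allow. These tests treated littermates as independent, and arrangements kept within litters would be far fewer.

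Of the 22 tested members of the Sertoli and testis determination list, 15 were higher in XY gonads and 1 higher in XX gonads by the adjusted p, against 13.1% and 8.30% of all loci, and 6 did not pass. The median log2 difference of the list was -1.06, against -0.049 over all loci tested. The shares of 13.1% and 8.30%, and this median of all loci, are the background for every list count below. Without C3575 the counts were 15 and 3, and with litter as a fixed factor 11 and 1. *INHBB*, which encodes the beta B subunit of inhibins and activins, was at 0.825 to 6.31 FPKM in XX and 69.7, 104, 118 and 129 FPKM in XY gonads, a log2 difference of -4.46 ± 0.30 (limma adjusted p = 3.73e-07). *CLDN11*, a tight junction protein of Sertoli cells, reached at most 27.6 FPKM in an XX gonad and was at 107 FPKM or more in the XY gonads. *SOX10*, a relative of *SOX9* best known from neural crest, was below 2 FPKM in all XX gonads and at 6.26, 10.3, 7.47 and 11.2 FPKM in XY gonads. *GDNF*, a growth factor for germ cells and nerves, had a highest XX value of 1.54 and XY values of 2.9, 5.85, 7.41 and 8.11 FPKM. The sex difference did not extend to the whole list. The summed FPKM of its 25 loci, *AMH* not among them, was 1328 to 2082 in XX and 2121 to 3631 in XY gonads. A shorter set of Sertoli markers (3 loci, *SOX9* and *CLDN11* among them) summed to 367 to 679 FPKM in XX and 704 to 1196 FPKM in XY gonads. *TESC* (tescalcin) was the member higher in XX gonads, at 58.4 to 108 FPKM against 30.7 to 51.1 in XY gonads (limma adjusted p = 4.51e-04), and *VNN1*, *COL9A3*, *ETV5*, *NR0B1*, *SOX4* and *FGF9* did not pass.

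*FGF9*, a growth factor that sustains *SOX9* in the mouse testis, was at 5.71 to 15.8 FPKM in XX gonads and 4.38 to 5.11 FPKM in XY gonads, so that the groups did not overlap. The XX side was the higher, by 0.55 ± 0.20, with limma adjusted p = 0.0673 and exact permutation p = 0.0196. The highest XX value belonged to C3575. Without C3575 the difference was 0.43 (limma adjusted p = 0.0119), and in the table of annotated genes it was 0.63 (limma adjusted p = 0.0336).

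Ovary genes were higher in XX gonads, and *FOXL2* was uneven among the XX embryos. *FOXL2*, a transcription factor of pre-granulosa cells (CFA23 from 35145964 to 35147181), was at 2.87 to 33.4 FPKM in XX gonads, with a median of 22.7, and at 1.13, 0.324, 1.18 and 0.329 FPKM in XY gonads (3.49 ± 0.46, limma adjusted p = 1.60e-04). The low XX value was that of C3575, and the next lowest was 10.7 FPKM in C3525. *RSPO1*, the secreted enhancer of WNT signalling, was at 22.9 to 52.7 FPKM in XX and 13.8, 7.27, 5.7 and 6.09 FPKM in XY gonads (2.04 ± 0.24, limma adjusted p = 5.44e-05). *WNT4*, the ovarian WNT ligand, was at 10.6 to 27.6 FPKM in XX and 7.55, 3.8, 3.48 and 4.18 FPKM in XY gonads (1.77 ± 0.21, limma adjusted p = 6.27e-05). In both genes the sexes did not overlap, and C3574 was the XY gonad nearest to the XX range. *FST*, the activin-binding protein follistatin and a WNT4 target in the ovary, had a smaller difference, 2.73 to 8.53 FPKM in XX against 1.85, 1.7, 1.48 and 1.23 FPKM in XY gonads (1.32 ± 0.21, limma adjusted p = 6.33e-04).

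In the pre-granulosa and ovary list, 10 of 19 tested members were higher in XX gonads and 1 (*CTNNB1*, which did not pass in the table of annotated genes) higher in XY gonads by the adjusted p, with a median of 0.74. Without C3575 the counts were 12 and 1, and with litter as a fixed factor 9 and 0 (11 and 2 at an unadjusted p under 0.05 in the fit without litter). *EMX2*, a homeobox factor of the early urogenital ridge, was at 56.4 to 75.7 FPKM in XX and 30.4, 25.2, 27.9 and 28.4 FPKM in XY gonads and had the lowest adjusted p of the list (limma, 8.06e-07). *BMP2*, a ligand of the bone morphogenetic protein family, was at 3.77 to 5.64 FPKM in XX and 1.4, 1.68, 1.74 and 1.79 FPKM in XY gonads. *KITLG*, *BMP4*, *ESR2*, *FOXO3*, *FOXP1*, *CDKN1B*, *GNG13* and *NR0B1* did not pass. *IRX5* and *RUNX1*, transcription factors of early granulosa cells, passed at low levels, with XX medians of 1.53 and 1.52 FPKM.

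*NKD1*, *NOTUM* and *AXIN2*, feedback genes of WNT/beta-catenin signalling, were higher in XX gonads. *NKD1*, an inhibitor that WNT signalling induces against itself, was at 13.4 to 36.1 FPKM in XX and 6.95, 1.57, 2.06 and 2.6 FPKM in XY gonads (2.88 ± 0.28, limma adjusted p = 1.20e-05). *NOTUM*, an enzyme that inactivates WNT ligands, was at 49.2 to 76 FPKM in XX and 23.9, 8.64, 6.9 and 9.91 FPKM in XY gonads (limma adjusted p = 1.37e-05). *AXIN2*, a scaffold of the complex that degrades beta-catenin, was at 22 to 38.8 against 14.1, 11.3, 10.5 and 12.3 FPKM (limma adjusted p = 8.03e-05). In all of these the sexes were apart and XX was higher. In the list of WNT/beta-catenin targets and feedback genes as a whole, 11 of 21 tested members were higher in XX and 5 higher in XY gonads, 5 did not pass, and the median was 0.51. Without C3575 the counts were 12 and 5, and with litter as a fixed factor 5 and 2. The members higher in XY were *SFRP2*, a secreted WNT antagonist (30.2 to 60.4 FPKM in XX, 68.8 to 154 in XY), *TNFRSF19*, *BAMBI*, *LRP5* and *CTNNB1*, which encodes beta-catenin itself and differed by -0.26. In the table of annotated genes *CTNNB1* (-0.18, limma adjusted p = 0.0976) and *LRP5* (-0.41, limma adjusted p = 0.0791) did not pass. *SFRP1*, another secreted antagonist, went the other way, at 86.7 to 187 FPKM in XX and 47 to 71.8 in XY gonads.

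Factors needed by the gonad of either sex differed less. *NR5A1*, the nuclear receptor that drives steroidogenic genes, was at 33 to 62.5 FPKM in XX and 76.6 to 92.5 FPKM in XY gonads (-0.66 ± 0.13, limma adjusted p = 0.00254, table of annotated genes). *GATA4*, a transcription factor of somatic gonad cells, was at 31 to 54.4 FPKM in XX and 67.4 to 76.7 in XY gonads (-0.66 ± 0.13, limma adjusted p = 0.00241). Both were higher in XY gonads without overlap, and C3575 was the lowest XX gonad in both. *WT1*, a transcription factor of the early gonad, was at 64.6 to 76.8 FPKM in XX gonads and 65, 49.4, 49.8 and 54.3 FPKM in XY gonads, where C3574 overlapped the XX range (0.33 ± 0.083, limma adjusted p = 0.0112). With litter as a fixed factor the adjusted p of *WT1* was 0.175. In the bipotential gonad list, 4 of 14 tested members were higher in XX (*WT1*, *LHX9*, *EMX2* and *SIX4*) and 1 (*GATA4*) higher in XY gonads, with a median of 0.15. *LHX9*, a LIM homeobox factor, ranged widely among XX gonads, from 38.7 to 129 FPKM with C3575 highest, against 22.1 to 31.2 FPKM in XY gonads.

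**Figure D2:**
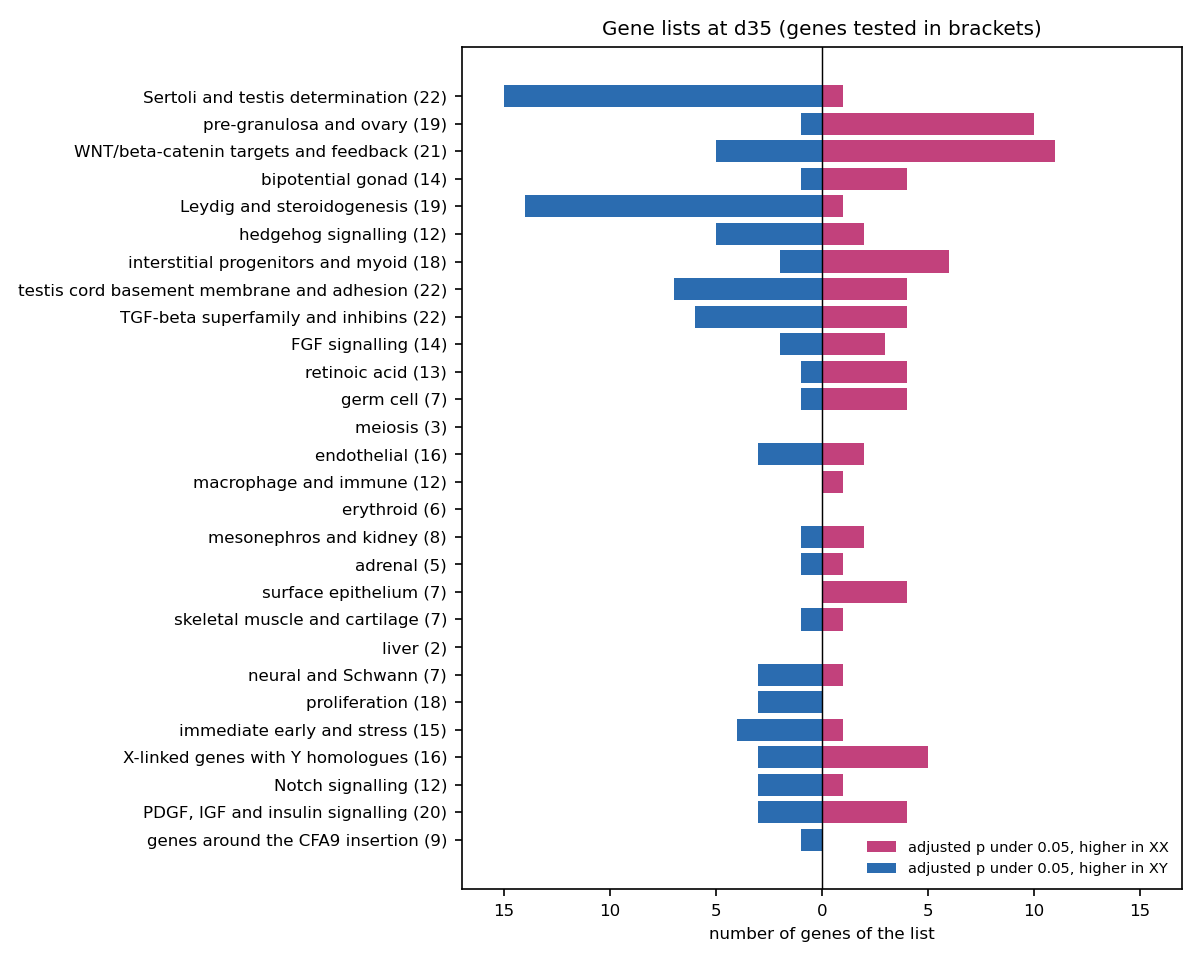
Number of genes of each of 28 gene lists with a limma adjusted p under 0.05 at d35, higher in XX gonads (pink, to the right) or higher in XY gonads (blue, to the left), with the number tested in brackets. The longest bars are the Sertoli (15) and Leydig (14) lists on the XY side and the WNT (11) and pre-granulosa (10) lists on the XX side.

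Genes of steroid synthesis were higher in XY gonads, and the XY embryo of L208, C3574, stood far below the 3 XY embryos of L217. *HSD17B3*, which converts androstenedione to testosterone, had the lowest adjusted p of the Leydig list, with 0.124 to 0.436 FPKM in XX and 25, 54.8, 42.3 and 43.7 FPKM in XY gonads (-5.04 ± 0.16, limma adjusted p = 3.35e-10). *STAR*, which carries cholesterol into mitochondria, was at 43.2 to 275 FPKM in XX gonads and 350.2, 1970.0, 1491 and 1382 FPKM in XY gonads (-2.76 ± 0.51, limma adjusted p = 0.00184). *CYP17A1*, the enzyme that forms androgen precursors, was at 82.1 to 608 FPKM in XX gonads, 562 FPKM in C3574 and 2281 FPKM or more in the other XY gonads (-2.31 ± 0.54, limma adjusted p = 0.00827). For *CYP17A1* the value of C3574 lay inside the XX range, and for *STAR* just above it. *CYP11A1*, which makes pregnenolone from cholesterol, likewise overlapped only through C3574 (35.9 to 199 FPKM in XX, 122, 649.6, 701 and 475 FPKM in XY, limma adjusted p = 0.0187). *HSD3B2*, which oxidises pregnenolone and related steroids, was at 48.4 to 186 FPKM in XX and 223, 792, 648 and 618 FPKM in XY gonads. *FDX1* and *FDXR*, the electron carriers of the mitochondrial P450 enzymes, were at 121, 776, 595 and 465 FPKM and 106, 201, 162 and 179 FPKM in XY gonads, above XX maxima of 87.7 and 86.9 FPKM.

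By the adjusted p, 14 of 19 tested members of the Leydig and steroidogenesis list were higher in XY gonads and 1 higher in XX gonads, with a median of -1.36. Without C3575 the counts were 15 and 1, and with litter as a fixed factor 8 and 1. The member higher in XX was *CYP19A1*, the aromatase that makes estrogen, at 0.274 to 3.01 FPKM in XX and 0.0274, 0.224, 0.273 and 0.133 FPKM in XY gonads (limma adjusted p = 0.0121). XX gonads were not without steroidogenic transcripts: *CYP17A1* had an XX median of 474 FPKM and *STAR* one of 194 FPKM, and C3575 was the lowest XX gonad for *STAR*, *CYP17A1*, *CYP11A1* and *HSD3B2*. Of the adrenal cortex markers *CYP11B1*, *CYP21A2*, *MC2R* and *MRAP*, 3 had a locus, with *MRAP* at 0. They summed to 0.593 to 1.80 FPKM in XX and 1.55 to 9.04 FPKM in XY gonads. The XY gonads of L217, at 3.77 to 9.04 FPKM, lay above every XX gonad. The longer adrenal list of 11 loci summed to 39.9 to 100 FPKM in XX and 62.9 to 95.4 FPKM in XY gonads. The part of adrenal cells in the sex difference was not tested. In such bulk samples, fewer cells of a type and less RNA per cell cannot be told apart.

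The same XY embryo was the XY gonad nearest to the XX side at most called loci, and at many of these it lay toward the d34 XY pool. C3574 was the XY gonad nearest to the XX values at 259 of the 397 loci higher in XX and at 373 of the 513 higher in XY. At 298 of the 397 it lay outside the range of the other XY gonads, and at 215 of these it lay between that range and the value of the d34 XY pool. The same held at 258 of the 430 loci higher in XY at which C3574 lay outside the range, against 4136 of 10903 over all loci tested (72.1%, 60% and 37.9%). In the d34 XY pool *RSPO1* was at 42.6 FPKM, in C3574 at 13.8 and in the other XY gonads at 5.7 to 7.27. *NKD1* was at 34.5, 6.95 and 1.57 to 2.6 FPKM in the same order. *STAR* ran in the opposite direction, from 129.6 FPKM in the pool to 350.2 in C3574 and 1382 to 1970.0 in the others. *SOX9* (56 FPKM in the pool, 52.5 in C3574) and *DMRT1* (55.9 and 42.4) were at XY levels in both. All of the 10 called genes of the Leydig list had C3574 between the pool and the other XY gonads, as had 8 of 12 called genes of the Sertoli list, 5 of 6 of the WNT list, 3 of 3 of the surface epithelium list, 4 of 7 of the pre-granulosa list, 4 of 7 of the TGF-beta list, 2 of 4 of the neural list, 1 of 4 of the hedgehog list and 0 of 3 of the X-linked list. For comparison, C3574 lay between the pool and the other XY gonads at 54.2% of all loci called higher in XX. The share was 50.3% of all loci called higher in XY and 24.0% of all loci tested, so several of these lists lie near the share of called loci. The 12 genes plotted for C3574 were chosen after their values were seen. The pool is 1 library from other litters without the insertion, and C3574 was the only XY embryo of its litter, so these positions are a description of single libraries. Without C3574 the calls numbered 1036 (424 higher in XX, 612 higher in XY).

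**Figure D3:**
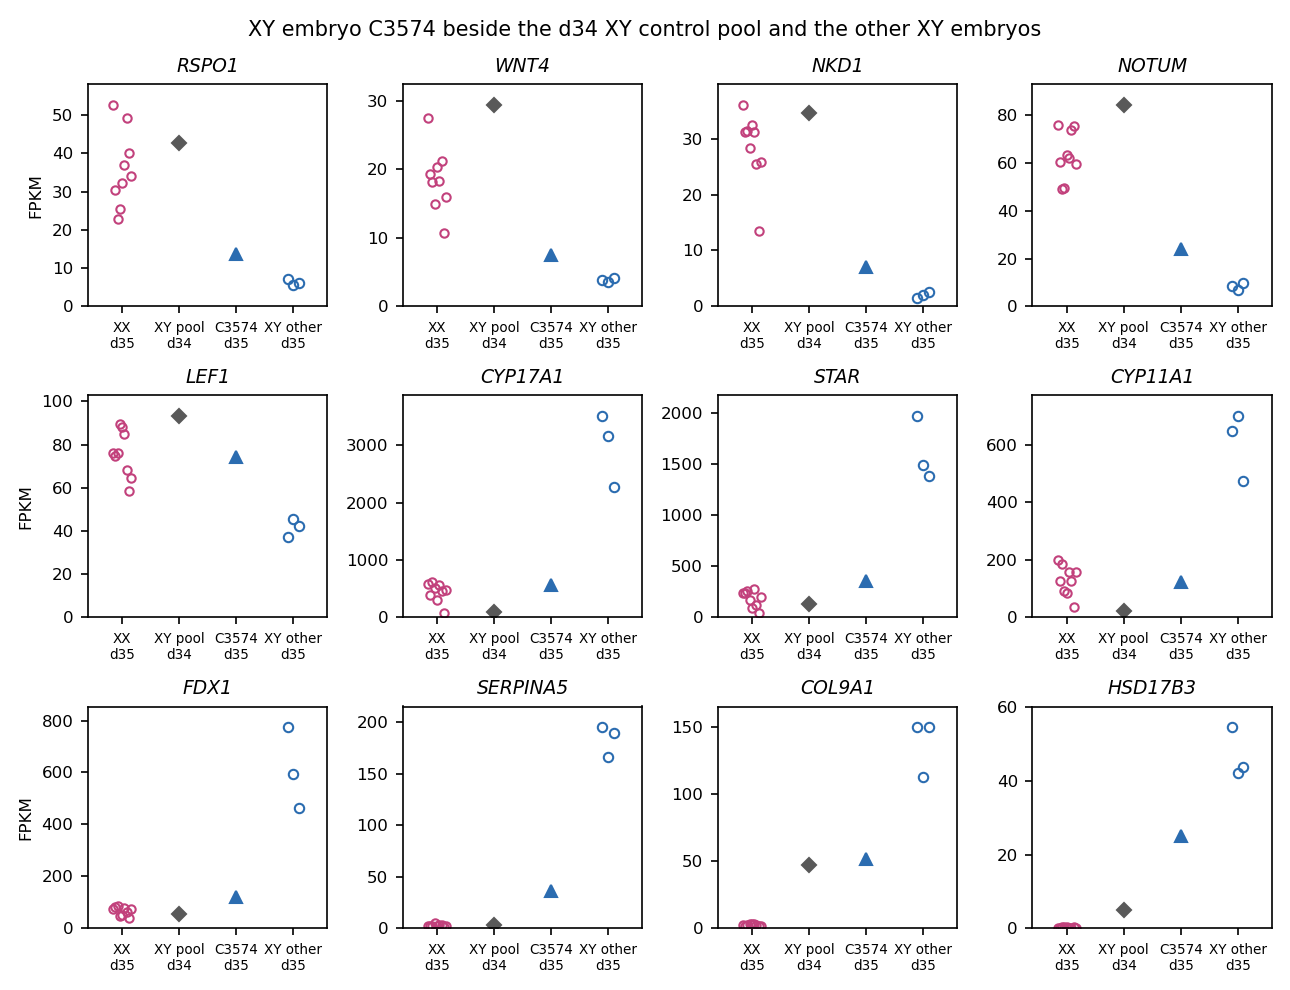
FPKM (linear axes starting at 0, 1 panel per gene) in the 9 XX gonads at d35 (pink circles), the d34 XY control pool (grey diamond), the XY gonad C3574 (blue triangle) and the other 3 XY gonads at d35 (blue circles). C3574 lies between the pool and the other XY gonads in all 12 panels, for example 54.8, 121 and 465 to 776 FPKM for *FDX1*.

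Transcripts of testis cord structure differed gene by gene rather than together. In the list of cord basement membrane and adhesion genes, 7 of 22 were higher in XY and 4 higher in XX gonads, with a median of -0.37. *COL9A1*, a chain of collagen IX, was at 1.44 to 3.58 FPKM in XX and 52, 150.4, 113 and 150.3 FPKM in XY gonads (-4.99 ± 0.26, limma adjusted p = 4.11e-08). *ITGA6*, a laminin receptor subunit, was at 7.85 to 21.7 FPKM in XX and 161, 187, 213 and 213 FPKM in XY gonads (-3.48 ± 0.22, limma adjusted p = 2.68e-07). Both were apart without overlap, and *COL9A1* was again lowest in C3574 among XY gonads. *SPARC*, a matrix glycoprotein, was at 944 ± 209 FPKM (SD, n = 9) in XX and 2115 ± 170.0 FPKM (SD, n = 4) in XY gonads. The members higher in XX were *LAMA5*, *COL4A6*, *NID2* and *FN1*, of which *LAMA5*, a laminin chain, was at 6.16 to 19.5 FPKM in XX and 3.5 to 4.81 FPKM in XY gonads.

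Ligands and intracellular mediators of the TGF-beta superfamily split between the sexes. Of 22 tested genes, 6 were higher in XY (*INHA*, *INHBA*, *INHBB*, *SMAD7*, *ID3* and *NOG*) and 4 higher in XX gonads (*FST*, *BMP2*, *SMAD3* and *SMAD5*), with a median of 0.024. *ID3*, a target gene of BMP signalling, was at 18.9 to 43.7 FPKM in XX and 80.6, 116, 123 and 132 FPKM in XY gonads (limma adjusted p = 8.41e-05). *SMAD5*, a mediator of BMP signalling, was at 51.3 to 72.9 FPKM in XX and 37.3, 22.8, 24.8 and 21.1 FPKM in XY gonads (limma adjusted p = 2.99e-05). *AMHR2*, the receptor for AMH, did not pass, at 17.5 to 41.1 FPKM in XX and 33.8 to 41 FPKM in XY gonads (log2 difference -0.23 ± 0.18).

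Hedgehog signalling carries a signal from Sertoli cells to the interstitium. Its receptor and target gene *PTCH1* was at 4.51 to 8.9 FPKM in XX and 19.3, 15, 19.5 and 22.1 FPKM in XY gonads (-1.38 ± 0.19, limma adjusted p = 1.93e-04). *HHIP*, a decoy receptor that the pathway induces, was at 2 to 5.25 and 10.9, 5.63, 7.22 and 6.99 FPKM. Both were apart without overlap. *CDON*, a hedgehog co-receptor, was at 41.3 to 73.9 FPKM in XX and 19.8 to 27.7 FPKM in XY gonads, and *GLI3*, mainly a repressor of the pathway, at 2.77 to 6.28 and 1.61 to 2.43 FPKM. In all, 5 of 12 hedgehog genes tested were higher in XY and 2 higher in XX gonads.

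Of 18 tested interstitial progenitor and myoid genes 6 were higher in XX, 2 (*PDGFA* and *VCAM1*) higher in XY gonads and 10 did not pass (limma), with a median of 0.078. Without C3575 the counts were 6 and 4. *NR2F2*, an orphan nuclear receptor of interstitial cells, was at 86 to 108 FPKM in XX and 58.7 to 62.2 FPKM in XY gonads (0.71 ± 0.072, limma adjusted p = 1.64e-05). *PDGFA*, a growth factor of Sertoli cells, was at 53.3 FPKM in C3574, at 20.9 to 24.1 FPKM in the other XY gonads and at 13.5 to 20.9 FPKM in XX gonads, and at 119.8 FPKM in the d34 XY pool. Of the PDGF, IGF and insulin list, 4 of 20 were higher in XX and 3 higher in XY gonads. *DLK1*, a marker of fetal Leydig cells, was at 0.598 to 2.74 FPKM in XX and 2.1, 9.66, 6.43 and 8.26 FPKM in XY gonads (limma adjusted p = 0.00209), where C3574 overlapped the XX range.

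Other signalling pathways of the fetal gonad held members on both sides, beside 8.30% of all loci higher in XX and 13.1% higher in XY. The Notch count in XX and the FGF count in XY lie near those shares. In FGF signalling 3 of 14 were higher in XX and 2 higher in XY gonads. *FGF1*, a ligand, was at 3.84 to 23.1 FPKM in XX and 1.19 to 3.28 FPKM in XY gonads, and *SPRY4*, a feedback inhibitor of FGF signalling, at 2.32 to 4.37 and 4.2 to 6.46 FPKM. In retinoic acid metabolism and signalling 4 of 13 were higher in XX and 1 higher in XY gonads. *CYP26B1*, which degrades retinoic acid and thereby delays meiosis in the testis, was at 2.39 to 23.9 FPKM in XX gonads, with a median of 5.06, and at 28.3, 34, 20.5 and 38.3 FPKM in XY gonads (-2.04 ± 0.40, limma adjusted p = 0.00284). *ALDH1A1*, which makes retinoic acid, was the higher in XX gonads (62.2 to 211 against 49.8 to 73.4 FPKM). In Notch signalling 1 of 12 was higher in XX and 3 higher in XY gonads, the latter led by *NRARP*, a Notch-induced inhibitor (2.38 to 7.39 against 9.84, 16.5, 12.8 and 13 FPKM, limma adjusted p = 0.00136).

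Germ cell transcripts were near the limit of detection. Only 7 of 21 germ cell loci and 3 of 13 meiosis loci reached a group mean of 1 FPKM, and *DDX4*, a defining germ cell marker, did not. Of these, 4 germ cell genes were higher in XX and 1 higher in XY gonads, and 0 meiosis genes passed (limma, 1 at an unadjusted p under 0.05). *LIN28A*, an RNA-binding protein of primordial germ cells, was at 1.94 to 8.99 FPKM in XX and 2.11, 0.503, 0.212 and 1.03 FPKM in XY gonads, and *MAEL*, a piRNA pathway protein, at 2.38 to 5.45 and 0.945 to 1.82 FPKM. The member higher in XY was *KIT*, a receptor that Leydig progenitors share with germ cells, at 3.81 to 8.31 FPKM in XX and 8.09, 28.6, 25.6 and 19.7 FPKM in XY gonads (limma adjusted p = 0.00126), and C3574 fell inside the XX range.

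Markers of other tissues differed in a few lists. Of the surface epithelium list, 4 of 7 were higher in XX gonads, with a median of 1.07. *KRT19*, an epithelial keratin, was at 31.7 to 248 FPKM in XX gonads, with C3575 at the top and a median of 48.5, and at 14.7 to 19.2 FPKM in XY gonads. The summed FPKM of the list was 271 to 808 in XX and 241 to 296 in XY gonads. The mesonephros and kidney list summed to 89.6 to 169 FPKM in XX and 59.7 to 66.6 in XY gonads, with *PAX2* near 0, and most of that sum was *PODXL*, a sialomucin of surface epithelium and podocytes (62.2 to 155 FPKM in XX, 32 to 47.7 in XY). Of its 8 tested genes 2 were higher in XX and 1 (*RET*, the GDNF receptor) higher in XY gonads. The part of covering epithelium or mesonephros left on the gonad in these differences was not tested.

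In the neural and Schwann cell list, 3 of 7 were higher in XY and 1 higher in XX gonads, and the list summed to 17.8 to 67.0 FPKM in XX and 91.3 to 111 in XY gonads. *ERBB3*, a neuregulin receptor, was at 0.779 to 1.99 FPKM in XX and 29.4, 67.8, 58.9 and 67.8 FPKM in XY gonads (-4.61 ± 0.20, limma adjusted p = 6.83e-09). The Schwann cell and neural crest markers *S100B* and *FOXD3* did not reach 1 FPKM in either group. Endothelial genes passed as 2 higher in XX (*TEK* and *KDR*) and 3 higher in XY of 16. Macrophage genes passed as 1 and 0 of 12, adrenal genes as 1 and 1 of 5, and muscle and cartilage genes as 1 and 1 of 7. Beside these counts stand 8.30% of all loci higher in XX and 13.1% higher in XY. Of 6 erythroid and 2 liver genes tested with limma 0 passed, and 0 had an unadjusted p under 0.05. Erythroid transcripts varied between libraries, and *AHSP*, a haemoglobin chaperone, was at 13.9 to 189 FPKM in XX gonads with C3511 at the top.

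C3574 had the highest values in the cell cycle genes that passed. Of 18 proliferation genes 3 were higher in XY (*PLK1*, *CDC20* and *MCM4*) and 0 higher in XX gonads by limma (5 and 0 at an unadjusted p under 0.05). Over all loci the shares by the adjusted p were 13.1% and 8.30%. *PLK1*, a mitotic kinase, was at 25.2 to 39.5 FPKM in XX gonads, at 53.1 FPKM in C3574 and at 36.7 to 42.2 FPKM in the other XY gonads. Of 15 immediate early and stress genes 4 were higher in XY (*DUSP1*, *JUN*, *JUNB* and *EGR1*) and 1 (*HSPH1*) higher in XX gonads, with *JUN* at 19.4 to 37.8 and 44.5 to 74.2 FPKM. Differences in how the gonads were handled were not tested.

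By the adjusted p alone, the shares of X-linked loci higher in each sex were close to those elsewhere, but by the calls the split by direction differed. Of the 735 X-linked loci, 9 were called higher in XX and 32 higher in XY gonads, against 388 and 481 of 16465 elsewhere. On the X the called share was thus smaller for XX and larger for XY. This split rests on 9 and 32 loci and was not tested. Of 735 X-linked loci tested, 8.71% were higher in XX and 13.6% higher in XY gonads by the adjusted p, against 8.28% and 13.1% of the loci elsewhere. Among X-linked genes with a Y homologue, 5 of 16 were higher in XX (*KDM6A*, *DDX3X*, *EIF1AX*, *ZFX* and *TXLNG*) and 3 higher in XY gonads. *KDM6A*, a histone demethylase that escapes X inactivation, was at 4.83 to 9.28 FPKM in XX and 4.07 to 4.24 FPKM in XY gonads (0.76 ± 0.13, limma adjusted p = 0.00128). *TXLNG* was at 6.42 to 8.18 and 3.39 to 4.02 FPKM. On the XY side *TSPYL2*, a chromatin protein of the TSPY family, was at 3.71 to 9.53 FPKM in XX and 17.2, 37.5, 36.5 and 45.4 FPKM in XY gonads. The locus named *TMSB4X* is a stretch of 126 bases on CFA26, at no more than 8.08 FPKM in XX gonads and at 332 to 521 FPKM in XY gonads. Its name does not match its position, since *TMSB4X* proper is X-linked, and reads of near-identical copies could have been counted there.

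**Figure D4:**
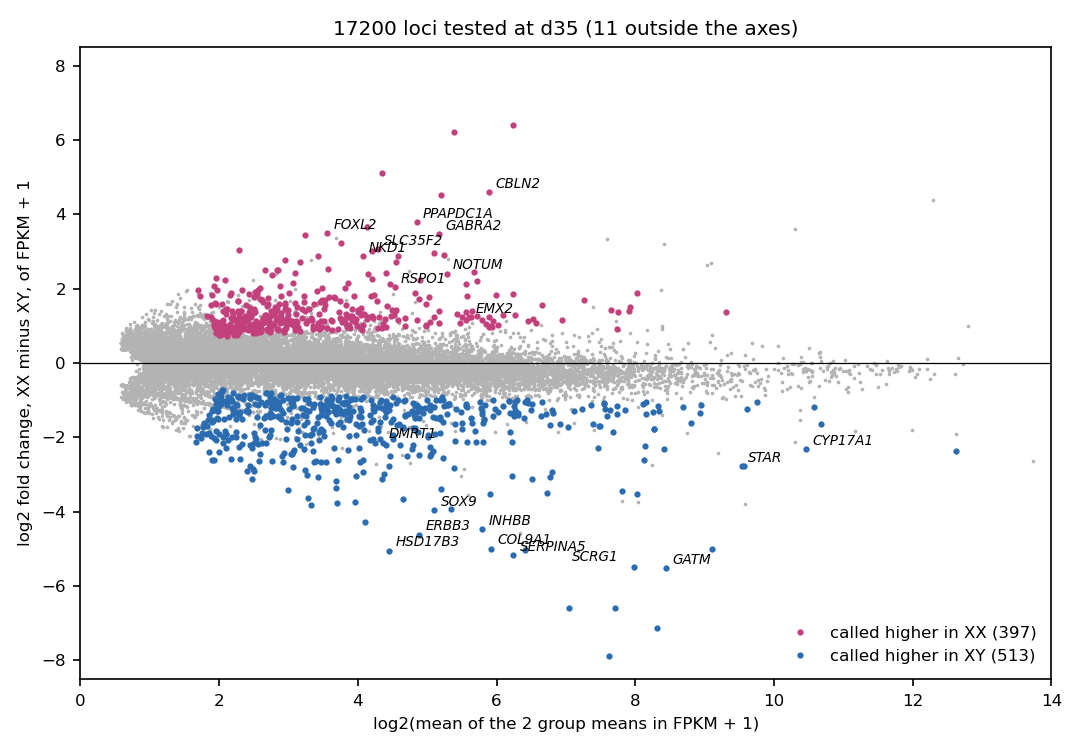
Log2 fold change (XX minus XY, of FPKM + 1) against mean level (log2 of FPKM + 1) for the 17200 loci tested at d35; grey points were not called, pink points were called higher in XX (397) and blue points higher in XY (513), and 11 loci lie outside the axes. Among the labelled genes *CBLN2* is the highest above 0, at 4.61, and *GATM* the farthest below, at -5.52.

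Several other genes, each the sole annotated gene of its locus, had large ratios on the XY side. *SERPINA5*, the protein C inhibitor, was at 1.17 to 5.31 FPKM in XX and 36.2, 196, 166 and 189 FPKM in XY gonads, 57.1-fold higher in XY by the group means (limma adjusted p = 1.27e-06). *GATM*, which makes the precursor of creatine, was at 4.75 to 23.7 FPKM in XX and 641, 711, 664 and 700.3 FPKM in XY gonads (45.1-fold, limma adjusted p = 8.18e-08), and *SCRG1*, a small secreted protein, at 4.61 to 18.6 and 445, 528, 488 and 514 FPKM (44.7-fold). *GATM* and *SCRG1* were even among the XY embryos, C3574 included, whereas *SERPINA5* was about 5 times lower in C3574. *VSIG1* (4.66, 24.3, 19.6 and 23 FPKM), *FATE1* (3.21, 24.9, 11.4 and 15.4 FPKM) and *IGSF23* (9.78, 43.1, 35.3 and 39.3 FPKM) were likewise lowest in C3574, and their highest XX values were 0.341, 0.5 and 1.27 FPKM. *KRT79*, a keratin (4.96, 11.8, 9.34 and 10 FPKM), and the beta-defensin *CBD123* (4.29, 4.45, 5.35 and 7.56 FPKM) stayed below 0.3 FPKM in every XX gonad.

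On the XX side *CBLN2*, a secreted protein of the cerebellin family, was at 19.6 to 221 FPKM in XX gonads, with a median of 106, and at 3.51, 3.75, 2.25 and 2.43 FPKM in XY gonads (38-fold higher in XX by the group means, limma adjusted p = 2.28e-05). In the XX d34 pool it was at 14.6 FPKM. *GABRA2*, a subunit of the GABA-A receptor, was at 12.5 to 94.1 FPKM in XX and 7.58, 3.35, 3.79 and 3.84 FPKM in XY gonads (14.2-fold), and *PPAPDC1A*, a lipid phosphatase, at 8.76 to 80.2 and 3.2, 1.9, 2.92 and 1.97 FPKM (21.2-fold). *AQP3*, a channel for water and glycerol, was at 6.73 to 23.3 and 0.781 to 2.63 FPKM, *SLC35F2*, a solute carrier, at 17.1 to 49.9 and 2.13 to 4.68 FPKM, and *SALL1*, a zinc finger factor of the urogenital ridge, at 4.18 to 17.2 and 0.537 to 1.97 FPKM. *GPC5*, a glypican, and *PTPRN2*, a protein of secretory vesicles, had ratios of 11 and 9. For *CBLN2*, *GABRA2* and *PTPRN2* the lowest XX gonad was C3575. ENSCAFG00000028656 (19 to 107 and 0.907 to 4.54 FPKM) and ENSCAFG00000030540 (5.39 to 14.6 and 0.943 to 1.74 FPKM) have no symbol in the annotation.

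Of the called loci, 144 held no annotated gene, 92 higher in XX and 52 higher in XY, and 25 of these had less than 200 bases of exon. On the plus strand of CFA20, 3 adjoining loci between 56782444 and 56789076 were far higher in XY gonads. The longest of them (1906 bases of exon) was at 0.188 to 7.54 FPKM in XX and 266 to 549 FPKM in XY gonads (limma adjusted p = 3.61e-07). They lie opposite the locus of *SF3A2*, which is on the minus strand. *AMH* has no locus of its own in this table, and it neighbours *SF3A2* in RefSeq (assembly UU_Cfam_GSD_1.0), so that these loci and *AMH* cannot be told apart. On CFA23, an unannotated plus-strand locus from 35141639 to 35149656 spans *FOXL2* on the other strand and was at 4.2 to 26.8 FPKM in XX and 0.185 to 0.75 FPKM in XY gonads. With libraries that keep no strand, its reads and those of *FOXL2* cannot be told apart. An unannotated locus on CFA22, from 22427380 to 22677313, was at no more than 0.037 FPKM in XX and at 3.59 to 9.79 FPKM in XY gonads (limma adjusted p = 2.08e-06). At a length of 24 bases, a locus on CFA19 had an XX median of 48818 FPKM and was at 0 in XY gonads and in all groups at d37-39. At such a length 1 read weighs so much that no level was read from it.

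Of the 9 tested genes in a list of genes around the CFA9 insertion, *SOX9* passed between the sexes (limma), and without C3575 2 did. The list does not hold every gene nearby, and called genes outside it were not counted. Examples from outside it that were called higher in XY gonads are *FDXR* (CFA9, 5567391 to 5577478, limma adjusted p = 1.26e-04) and *GRIN2C*, a glutamate receptor subunit (CFA9, 5577750 to 5596110, limma adjusted p = 0.00995). Others are *TRIM47* (CFA9, 4725617 to 4731882, limma adjusted p = 2.12e-04) and *RHBDF2* (CFA9, 4213721 to 4238529, limma adjusted p = 7.90e-04). All of these lie nearer to *BTBD17* than *SOX9* does. In the list *GPRC5C*, *TTYH2*, *CDC42EP4*, *SSTR2*, *COG1*, *SDK2*, *FAM104A* and *SLC39A11* did not pass, with log2 differences from -0.53 (*FAM104A*, limma adjusted p = 0.0867) to 0.16 (*CDC42EP4*). *BTBD17*, which holds the insertion (CFA9 from 6047911 to 6052088), was at 0 to 0.0825 FPKM in XX gonads and listed at 0 in every XY gonad, and was not tested, since it reached a mean of 1 FPKM in neither group, as was the case for *KIF19* and *GPR142*.

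The d35 differences were next counted in embryos that the comparison had not used. In XX and XY beagle controls at d37-39, 510 loci were called higher in XX (2.41%) and 733 higher in XY (3.46%) of 21171 tested. Of the 397 loci higher in XX at d35, 391 were tested there, 384 had the same direction and 269 were called in it, which is 67.8% of the d35 list and 52.7% of the control list. Of the 513 higher in XY, 505 were tested, 496 had the same direction and 385 were called, 75% of the d35 list and 52.5% of the control list. In the DSD pedigree at d37-39, where 429 (1.14%) and 589 (1.57%) of 37554 loci were called, the shared calls numbered 257 (64.7% and 59.9%) and 336 (65.5% and 57.0%). With limma, 0 loci were called in the opposite direction in either, and at an unadjusted p under 0.05 there was 1 from each list in controls and there were 2 from the XY list in the pedigree. *SOX9* was at means of 2.9 and 73.4 FPKM in XX and XY controls and 4.47 and 79.7 FPKM in XX and XY embryos of the DSD pedigree at d37-39. *RSPO1* was at 70.4 and 7.66 FPKM in controls and 43.8 and 4.71 FPKM in the pedigree, with log2 differences of 3.10 and 2.94 beside 2.04 at d35.

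**Figure D5:**
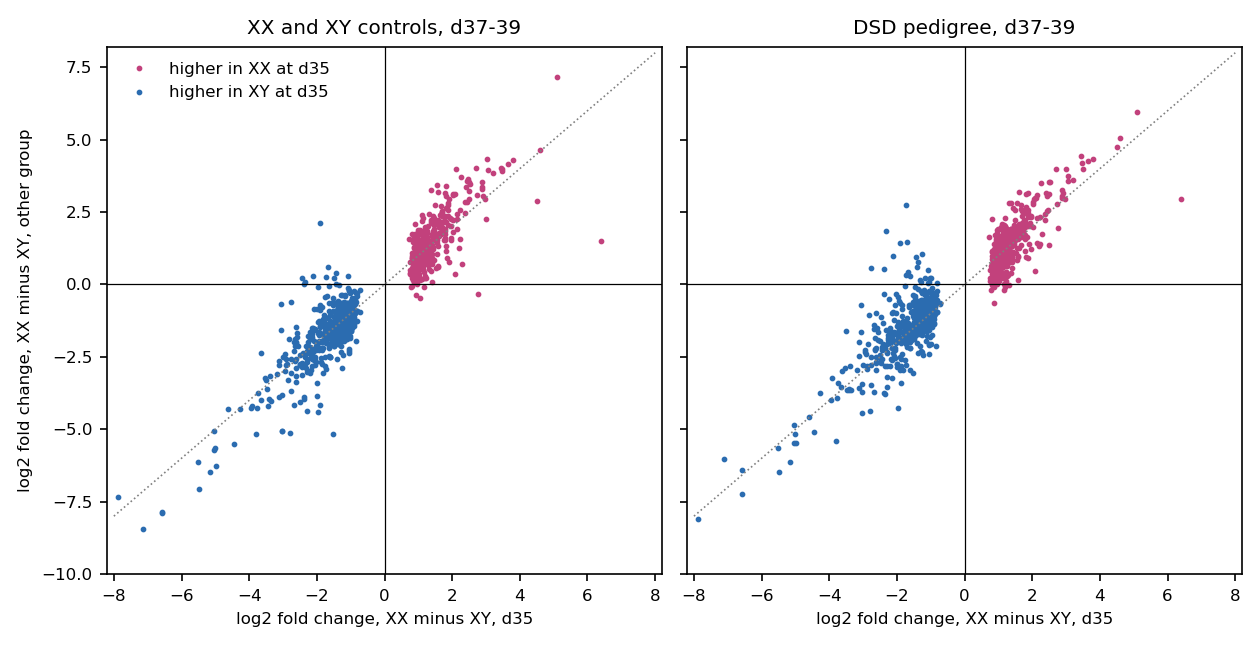
Log2 fold changes (XX minus XY, of FPKM + 1) at d37-39 in beagle controls (left) and in the DSD pedigree (right) against those at d35. Each panel holds the loci called at d35 and tested in the embryos of that panel. Pink loci were higher in XX and blue loci higher in XY at d35. The dotted line marks equal values, and 3 loci beyond 8 on the d35 axis are left out. In the controls 384 of 391 pink and 496 of 505 blue loci have the d35 direction.

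Where the sex difference at d35 was itself tested against that at d37-39 in the same pedigree (an interaction in 1 limma fit over the 4 groups), 98 of 38710 loci passed. For 36 (0.0930%) the d35 difference was the more towards XX and for 62 (0.160%) the more towards XY. The ages shared no litter and differed in their mix of insertion genotypes, so age, litter and genotype cannot be told apart here. *FST* was the only sex-determining gene named above among the 10 with the lowest adjusted p. Its sex difference was 1.32 at d35 and 2.82 at d37-39, when XX gonads had a mean of 14.4 FPKM (interaction -1.50 ± 0.26, limma adjusted p = 0.0192). *CYTL1*, a small secreted protein, was at 2.53 to 4.66 FPKM in XX and 18.9, 14.1, 11.7 and 14.6 FPKM in XY gonads at d35 and at means of 2.38 and 2.36 FPKM at d37-39 (interaction -1.73 ± 0.28, limma adjusted p = 0.0097). *RACGAP1*, a protein of cytokinesis, was at 68.8 FPKM in C3574 and 39.8 to 44.1 in the other XY gonads against 31.9 to 43 in XX gonads at d35, and at means of 31.8 and 19.8 FPKM at d37-39. *CTGF*, a matricellular growth factor, *VEGFC*, a lymphatic growth factor, and *APBB1IP*, an adaptor of integrin signalling, did not pass between the sexes at d35 and did so at d37-39, by 1.45 for *CTGF* and -1.04 for *VEGFC*. *RNF150*, a ring finger protein, passed at d35 (5.06 to 10.7 FPKM in XX, 3.26 to 3.65 in XY) and was at means of 6.67 and 6.61 FPKM at d37-39. ENSCAFG00000007705 and *GPSM2*, a regulator of spindle orientation, were also among the 10, with interactions of -1.22 and -0.76. The count rested on single libraries: it was 6 without C3574 and 330 without C3575.

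The difference between litters L208 and L217 in their sex difference was tested as well, although the XY arm of L208 and the XX arm of L217 are single embryos, assumed to vary like the others. The counts are therefore contrasts of single libraries, and nothing was read from them for a gene list. In this fit 450 of 18596 loci (2.42%) had a difference the more towards XX in L217 and 33 (0.177%) the more towards XY. Of these 483 loci, 417 held no annotated gene and 357 had less than 200 bases of exon.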

How the data were processed

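Gonad RNA-seq of 9 XX and 4 XY embryos was analysed from 2 tables of FPKM values (fragment counts scaled for transcript length and library size) made by the authors, who trimmed reads with cutadapt (1.5 in the submitters' processing notes, a later version in the study's methods), aligned them to CanFam3 with TopHat2 2.0.13 and obtained values scaled across libraries with Cufflinks 2.2.1 (Cuffnorm), as given in the study's methods and the submitters' processing notes. One table holds 58781 loci of an assembly guided by the annotation, and the other 24581 annotated genes, which served for *AMH*, *NR5A1* and an alternative. The deposited FPKM values hold no read counts, so read depth is known only in relative terms, from the smallest steps between values. Coordinates and names come from the deposited assembly file (exon positions, CanFam3). Of 533 list symbols, 439 had a locus of their own.

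Loci that reached 1 FPKM as the mean of either group were tested on log2(FPKM + 1), a scale that understates changes of low genes, with limma 3.58.1 (trended empirical Bayes) in R 4.3.3, and p-values were adjusted over all loci tested. Single genes were also tested by exact, two-sided permutation over all 13 libraries, which took no account of litter. The limma comparison between groups was first tested on simulated data. Groups came from the labels, and litters and genotypes from the study's methods. The members and gene lists were chosen with earlier results of these data known. Genes were named by a set rule: 12 sex-determining genes, up to 4 genes per list with the lowest adjusted p, the 12 largest ratios per direction among loci that hold 1 annotated gene and do not overlap between groups, 10 by the interaction, and those around the insertion. Other list members were named for their role after their values were seen. Alternatives varied the pseudocount, floor, table, scaling, fold, litter and genotype terms, and libraries. A few genes are not reported here. No sequence was read.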

Additional observations from a re-analysis of the deposited data

Results flagged for a closer look

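In 40 of 282 groups of values for single genes or library measures, 1 library lay far from the others of its sex by Dixon's 95% criterion, where the gap to the nearest library is divided by the range of the group. Chance flags about 1 in 20 groups. C3575 gave 21 of these and C3574 gave 10, and the values of a library are not independent of each other.

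Among XX gonads C3575 was the lowest for *FOXL2* (gap over range 0.508), *NR5A1* (0.603), *INHBB* (0.532), *NKD1* (0.641), *SP5* (0.588), *FGFR3* (0.714), *ENG* (0.587), *GABRA2* (0.703), *PTPRN2* (0.702), *CTGF* (0.520), *APBB1IP* (0.572), *SDK2* (0.494), ENSCAFG00000028656 (0.569) and Xist_exon4 (0.573). It was the highest for *FGF9* (0.551), *AIF1* (0.525), *HOPX* (0.533), *MCM4* (0.616), *FATE1* (0.721), ENSCAFG00000007705 (0.522) and *GPSM2* (0.495). C3575 was also the shallowest library, at a relative depth of 0.444, and the part of depth in these values was not tested.

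Among XY gonads C3574 was the lowest for *SPARC* (0.866), *ERBB3* (0.830), *DUSP1* (0.889), *IGFBP7* (0.869), *VSIG1* (0.864), *IGSF23* (0.861) and *SERPINA5* (0.902), and the highest for *PDGFRA* (0.874), *GABRA2* (0.844) and ENSCAFG00000030540 (0.886). C3574 was the only XY embryo of L208, so embryo and litter cannot be told apart. C3618 was the highest for Xist_exon4 (1.00), where its value was 0.00525 FPKM and the other XY values were at or near 0. C3619 was the lowest for *DDX3X* (0.894).

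Of the other XX gonads, C3525 was the highest for *DMRT1* (0.582) and the lowest for *PPAPDC1A* (0.672). C3572 was the highest for *SOX10* (0.530), a gene of the neural and Schwann cell list. C3511 was the lowest for *JUNB* (0.512) and *CDC42EP4* (0.593). C3510 was the highest for *CD68* (0.509), a macrophage protein, and *CBD123* (0.494).

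The sex difference at d35 differed from that at d37-39 at 98 loci (limma adjusted p under 0.05). Among those with the lowest adjusted p, the log2 difference between the d35 and the d37-39 sex difference was -1.04 for *RACGAP1*, -1.33 for *CTGF*, 1.27 for *VEGFC*, -1.22 for ENSCAFG00000007705, -1.73 for *CYTL1*, 1.09 for *APBB1IP*, -1.50 for *FST*, 0.95 for *RNF150* and -0.76 for *GPSM2*. Without C3574 the number of loci was 6. The sex difference differed between L217 and L208 at 483 loci, in a fit where each litter had 1 arm with a single embryo, and 417 of these held no annotated gene.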

How the results depend on the processing

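The count of 910 called loci at d35 lay between 633 (litter as a fixed factor) and 1061 (homozygous embryos alone) under the other settings, between 777 (without C3617) and 1036 (without C3574) when each library was left out, and at 1827 with a fold of at least 1.5 instead of 2. With 3 libraries that stood apart left out (C3511, C3572 and C3575), an alternative chosen after seeing the data, it was 943, and without C3575 alone 959. The counts at d37-39 stayed within 1.5 times, at 936 to 1056 in the DSD pedigree and 1066 to 1247 in controls. The interaction count of 98 was the least stable: 267 in the annotated table, 254 with d39 embryos alone, 165 with litter as a random block, and, chosen after seeing the data, 358 over loci with an annotated gene and 330 without C3575. Leaving out each library gave 6 (without C3574) to 330, with 52 without C3510, 61 without C3571, 35 without C3618, 51 without C3619, 149 without C3512, 60 without C3636, 39 without C3637 and 49 without C3638. Of 43 genes followed over 1123 alternative values, none was reversed, 22 values of *RACGAP1* and *WT1* lost the threshold, and 7 of *FGF9* and ENSCAFG00000007705 passed it. The causes were not tested. Median scaling moved the median of all loci from -0.049 to 0.023 and the share of calls higher in XX from 43.6% to 50.2%. The labels give no replicate numbers, and those used here only name samples. Pairing by litter was limited, since L194 and L197 gave no XY embryo. Litters L208 and L217 held both sexes, and litter entered as a factor (633, above) or a random block. Relative depth, and the absence of counts, limit what can be read below about 1 FPKM.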

Other observations

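In the pools of d34 control gonads, 1 library per sex and not tested, the Sertoli cell genes lay far apart and the WNT genes close together. *SOX9* was at 2.81 FPKM in the XX pool and 56 FPKM in the XY pool, *DMRT1* at 15.7 and 55.9, *COL9A1* at 1.36 and 47.2, and *PDGFA* at 25.3 and 119.8. *RSPO1* was at 47.7 FPKM in the XX pool and 42.6 FPKM in the XY pool, *WNT4* at 24.2 and 29.5, *NOTUM* at 71.4 and 84.5, and *LEF1*, a transcription factor partner of beta-catenin, at 88.9 and 93.4. Among steroidogenic genes, *CYP17A1* was at 135 FPKM in the XX pool and 93.1 FPKM in the XY pool, and *CYP11A1* at 19.9 and 23.3. *FOXL2* was at 6.95 and 2.68 FPKM, and *CBLN2* at 14.6 and 3.15. *PODXL* was at 145 and 144 FPKM in the pools, and at d35 at 62.2 to 155 FPKM in XX and 32 to 47.7 FPKM in XY gonads. These genes were chosen after their values were seen, and the pools come from other litters without the insertion.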
